A study of Arabidopsis thaliana with 20 samples.

Results

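This comparison sets rosette leaves of Arabidopsis thaliana taken 1 h after the lights came on against leaves taken 16 h after lights on, in WT plants and in Atss3, a mutant of starch synthase 3. The arrays were chosen by harvest time: all 4 arrays of 1 h and all 4 of 16 h, 8 of the 20 arrays of the series. Of 22746 probe sets (each a group of oligonucleotides read as 1 signal, mostly for 1 gene), 14741 were bright enough to be tested. The series followed both genotypes over a day of 8 h light and 16 h darkness, with harvests at 1 h and 4 h in the light and at 8.5 h, 12 h and 16 h in the dark, to compare the mutant with WT. The 4 groups used here are WT at 1 h, WT at 16 h, Atss3 at 1 h and Atss3 at 16 h, each with 1 array from each of 2 separately randomised runs. Every array measured the pooled leaves 5 to 8 of 16 plants that were 6 weeks old, so the spread between arrays is one between pools and runs, not between plants. The harvest at 16 h fell 8 h into the night, with 8 h of darkness still to come, so it is the middle of the night rather than its end. Light, the length of darkness and the time of day all differ between the groups and cannot be told apart here.

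A leaf makes sucrose and starch in the light and lives on its starch store at night. Light receptors such as the phytochromes act through transcription factors, HY5 and HYH among them, that switch on genes of pigment, photosynthesis and sunscreen synthesis at dawn. The circadian clock adds its own timing, with morning and evening genes that rise and fall whether or not light changes. When sugar runs short, the SnRK1 kinase is known to turn on genes for breakdown and recycling, including autophagy.

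The deposited values are MAS5 signals, a linear measure of probe set brightness that the authors had scaled to the same mean on every array. Such a scale hides any change in total RNA, and in whole leaves fewer cells of a type and less RNA per cell cannot be told apart. On the 8 arrays the median signal lay between 151.7 and 175.4. The 3′ to 5′ ratio of the GAPDH control, a sign of RNA integrity and labelling, averaged 0.22 ± 0.28 (log2, SD, n = 4 arrays) at 1 h and 0.23 ± 0.16 at 16 h, with an exact 2-sided permutation p of 0.943. The actin control gave 2.17 ± 0.64 and 2.82 ± 0.51 with an exact permutation p of 0.171, where 0.0286 is the smallest p that 4 against 4 arrays allow. Both WT arrays of run 1 had the lowest GAPDH ratios, −0.19 at 1 h and 0.05 at 16 h. Their actin ratios, 2.52 and 2.79, lay inside the range of 1.41 to 3.31 on the 8 arrays. The 2 controls thus do not mark these arrays as poorer than the others. The mutated gene SS3 has no named probe set here and was not analysed.

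In the fit of both genotypes, 5807 of 14741 probe sets (39.4%) differed between 1 h and 16 h at a Benjamini-Hochberg adjusted p under 0.05 (limma, with genotype and run as covariates). Of these, 2574 (17.5% of those tested) were higher at 1 h and 3233 (21.9%) were lower. Differences of at least 2-fold were found for 1068 higher (7.25%) and 1136 lower (7.71%) probe sets. The median difference over all tested probe sets was −0.06 on the log2 scale, and the median size of a called one was 0.83. Of the called probe sets, 3122 name 1 gene and 2685 could not be named here. Centring each array on its median kept the count at 5634 but moved the share that was higher at 1 h from 44.3% to 52.0%, so the balance of rises and falls rests on the scaling.

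Over all 14741 tested probe sets, WT and Atss3 gave a difference of the same sign in 12010 (81.5%). Among the 5807 called ones the signs matched throughout, which the fit of both genotypes together largely fixes, since opposite changes cancel in it. Tested apart in a fit of all 20 arrays, 3862 probe sets (26.2%) were called in WT and 4906 (33.3%) in Atss3. The 3107 called in both make up 80.5% of the WT calls and 63.3% of the Atss3 calls, and 3105 of them had the same sign, 1396 higher and 1709 lower at 1 h. Across all tested probe sets the changes in the 2 genotypes correlated with a Pearson r of 0.90 and a Spearman rho of 0.83, where probe sets of 1 array are not independent of each other. The larger count in Atss3 is not a test of a larger change. The test of the genotype difference in the change called 0 of 14741 probe sets by limma, with 631 (4.28%) under an unadjusted p of 0.05. That share moved up or down when single arrays were left out. With 2 arrays per group, the lack of calls does not show that the genotypes change alike.

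**Figure D1:**
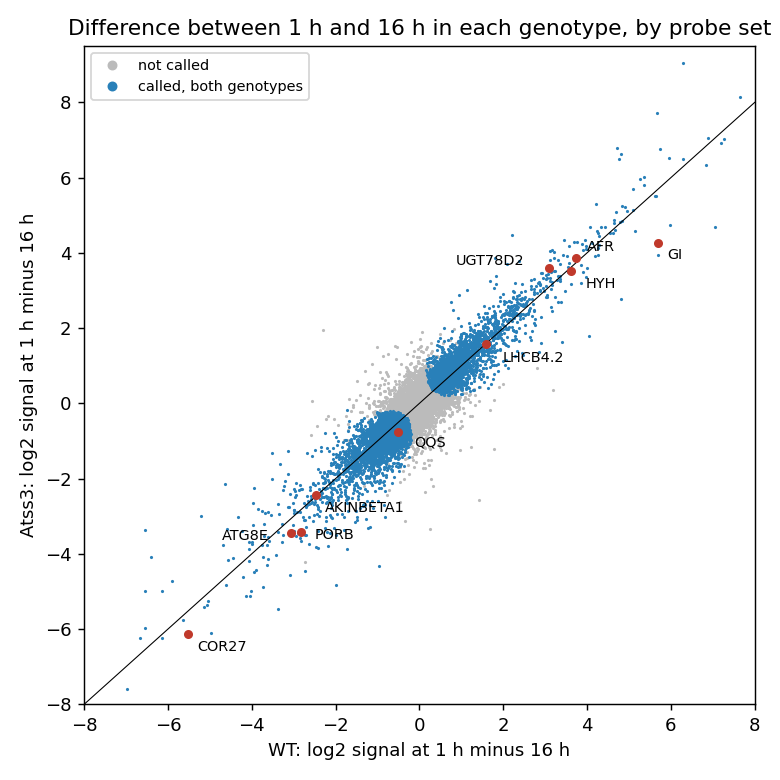
Difference between 1 h and 16 h (log2 signal) in WT on the horizontal axis and in Atss3 on the vertical axis, 1 point per probe set, with the line of equality in black and 10 genes marked in red. The 5807 probe sets called in both genotypes together, in blue, lie along the line at the lower left and the upper right.

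The changes measured in run 1 and in run 2 correlated with r = 0.86 across probe sets, and 11560 of 14741 (78.4%) had the same sign in both runs. Each of the 4 pairs of arrays of the same genotype and run gave the same sign in 8080 probe sets (54.8% of those tested). Among the called probe sets 5675 (97.7%) did so, and since the calls were made from the same pairs this share describes them and supports nothing. The 4 signals of 1 h did not overlap the 4 signals of 16 h in 5430 (36.8%) of all tested probe sets. Among the called ones it was 4840 (83.3%), a higher share that again follows from calling on these same signals.

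The largest increase at 1 h among probe sets that name 1 gene and were bright on all 8 arrays was at AT1G55960, which has no gene name in the annotation. Its signals at 1 h were 8548 and 8129 in WT and 9257 and 8195 in Atss3, and at 16 h they were 321 and 352 in WT and 256 and 341 in Atss3. The lowest array of 1 h was far above the highest of 16 h, and the difference was 4.76 ± 0.15 (log2, standard error), or 27.1-fold, with an adjusted p of 1.02e-06. AFR, an F-box protein of phytochrome A signalling, read 3853 and 2963 in WT and 3061 and 2949 in Atss3 at 1 h. At 16 h it read 265 and 239 in WT and 208 and 208 in Atss3. The groups were well apart, and AFR was 13.9-fold higher at 1 h, by 3.75 in WT and 3.85 in Atss3 on the log2 scale.

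HYH, the close relative of the light-response factor HY5, was 11.8-fold higher at 1 h. Its signals at 1 h were 1400 and 1243 in WT and 1981 and 1570 in Atss3, against 105 and 110 in WT and 186 and 129 in Atss3 at 16 h. The groups did not overlap, and the difference was 3.57 ± 0.14 with an adjusted p of 1.95e-06. The other 9 of the 12 largest increases are known here by locus only: AT5G15950 (4.55), AT5G35970 (4.51), AT2G36630 (4.19), AT3G56290 (4.14), AT1G73480 (4.09), AT3G57020 (3.81), AT3G48460 (3.68), AT5G54130 (3.59) and AT5G11650 (3.52 on the log2 scale). In all 12 the signals of the 2 times did not overlap, beside 36.8% of all tested probe sets. The choice by size and by 4 of 4 pairs makes this likely.

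Among genes with a symbol, chosen by size after their values were seen, the increases covered several functions. ARD4, an acireductone dioxygenase of the methionine salvage cycle, read 11521 to 11821 on the 4 arrays of 1 h and 1635 to 2004 on those of 16 h, a difference of 2.73 ± 0.13. MSRB6, a methionine sulfoxide reductase that repairs oxidised protein, was higher by 2.44 ± 0.21. Fes1A, which acts on Hsp70, was 4.96-fold higher, SGT1A, a co-chaperone of Hsp90, 3.65-fold, and Cpn60beta2, a subunit of the chloroplast chaperonin, 3.49-fold. PUB19, a ubiquitin ligase, was higher by 2.40, CYTC-2, a cytochrome c of the mitochondrial electron chain, by 2.18, and TBL26, of a family of wall polymer acetyltransferases, by 2.43 on the log2 scale. None of these 8 genes had overlapping groups, which their choice by size makes likely. Over all tested probe sets 36.8% had none.

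**Figure D2:**
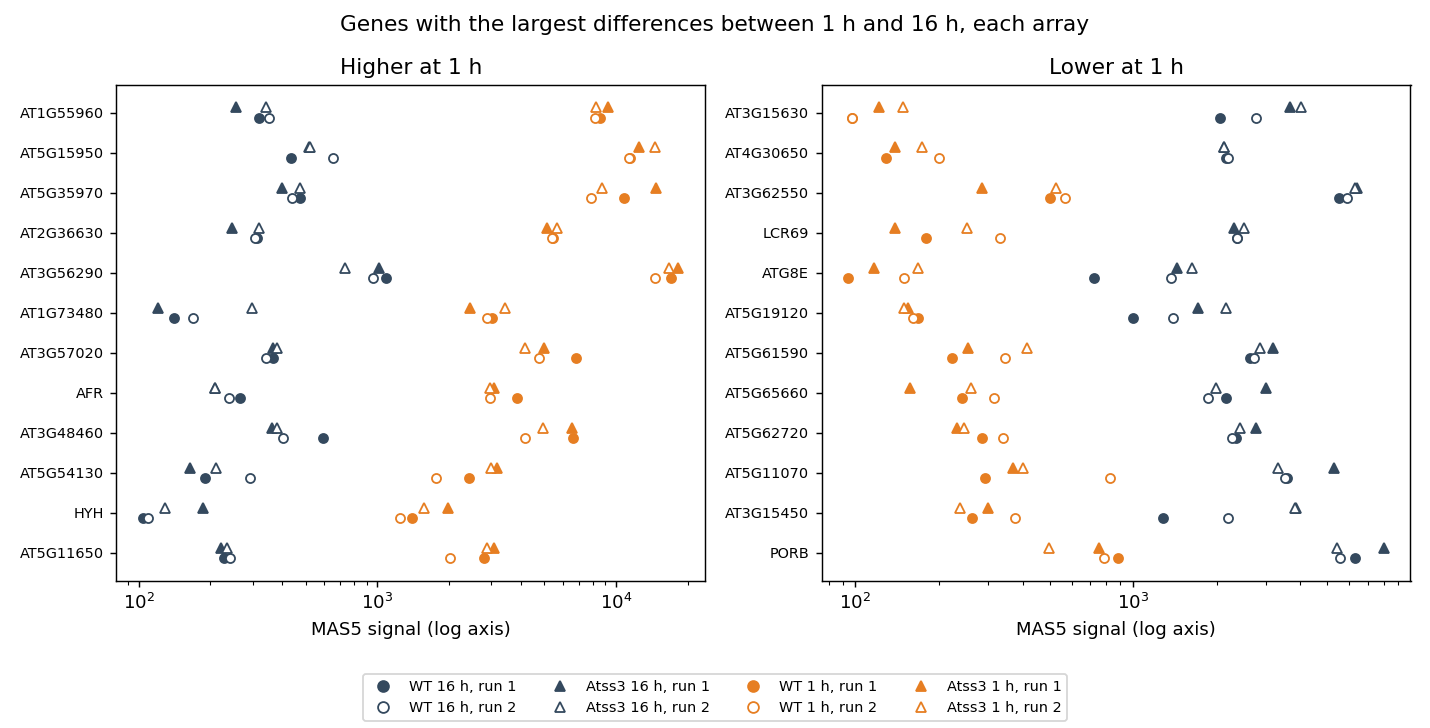
MAS5 signal (log axis) of the 12 genes with the largest increases (left) and the 12 with the largest decreases (right) at 1 h, on each of the 8 arrays, with orange for 1 h, dark blue for 16 h, circles for WT, triangles for Atss3, filled for run 1 and open for run 2. The orange and blue symbols of each gene stand apart without overlap, and circles and triangles of 1 colour lie close to each other.

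The largest decrease at 1 h among probe sets that name 1 gene and were bright on all 8 arrays was at AT3G15630, which is known here by locus only. Its signals at 1 h were 97 and 98 in WT and 121 and 149 in Atss3, and at 16 h 2057 and 2771 in WT and 3661 and 4004 in Atss3. Every array of 16 h lay above every array of 1 h, and the difference was −4.72 ± 0.13 with an adjusted p of 7.62e-07. AT5G61590, which the gene table also lists as DEWAX, a repressor of wax synthesis, was lower, at −3.25 ± 0.17, with 222 to 413 at 1 h and 2632 to 3185 at 16 h. LCR69, a small cysteine-rich protein of the defensin kind, fell to 139 to 331 at 1 h from 2308 to 2513 at 16 h, a difference of −3.48. Its relative LCR68 was also lower, at −1.93. The remaining large decreases without a symbol were AT4G30650 (−3.77), AT3G62550 (−3.73), AT5G19120 (−3.25), AT5G65660 (−3.23), AT5G62720 (−3.16), AT5G11070 (−3.15) and AT3G15450 (−3.13).

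Symbol-bearing decreases, again chosen by size after their values were seen, included proteases, transporters and chromatin proteins. SCPL49, a serine carboxypeptidase-like protein, read 1072 to 1241 at 1 h and 3865 to 4653 at 16 h (−1.84 ± 0.13). HON4, a linker-histone-like protein, read 330 to 349 at 1 h and 1218 to 1438 at 16 h (−1.94 ± 0.12). The groups of both genes were tight and far apart. MAP1C, an organellar methionine aminopeptidase, was lower, at −2.17, TMT1, a carrier that loads sugars into the vacuole, at −1.83, and CCL, whose role is not given here, at −2.26. ZW9 (−1.83), TBL45 (−1.84) and ATPMEPCRB, a pectin methylesterase (−1.83), complete the group.

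Some genes were at the level of background at 1 of the 2 times. A signal at or under its array's 40th percentile, 85.5 to 101.7 here, was called dim. For a gene dim on all 4 arrays of one time and bright on all 4 of the other, the fold is a lower limit reckoned from that percentile. Of the called probe sets, 131 were dim at 16 h and bright at 1 h, and 166 the reverse. AT2G27420 read 2637 to 4615 at 1 h and 30 to 52 at 16 h, higher by at least 5.32 on the log2 scale, and AT2G15020 was at least 32.0-fold higher. AT5G48570, listed also as FKBP65 or ROF2, a heat-responsive peptidyl-prolyl isomerase, was at least 13.0-fold higher, with 913 to 1609 at 1 h and 42 to 54 at 16 h. AT1G76240 (at least 9.26-fold) and AT1G48100 (at least 8.63-fold) followed. In the other direction, AT4G17470 was at least 12.9-fold, AT1G48210 at least 8.21-fold, AT2G39920 at least 7.31-fold and AT1G07050 at least 4.47-fold lower at 1 h.

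Of 29 loci listed for the clock and its light input, 3 could be measured, and all 3 were called, beside 39.4% over all probe sets. GI, a day-phased clock protein that helps time flowering, read 1614 and 690 in WT and 2200 and 835 in Atss3 at 1 h, against 36 and 11 in WT and 74 and 66 in Atss3 at 16 h. All 4 arrays of 16 h were dim, so GI was at least 12.8-fold higher at 1 h, and run 1 exceeded run 2 in both genotypes at 1 h. COR27, a cold-induced repressor in the evening part of the clock, went the other way. It read 31 and 32 in WT and 8 and 33 in Atss3 at 1 h and 1244, 1715, 1033 and 1286 at 16 h, at least 13.9-fold lower at 1 h. AT4G33980, listed with the clock genes by locus, was at least 5.19-fold lower. The other listed loci were not analysed here.

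Of the flavonoid list 2 genes were measured, and they were called in opposite directions. UGT78D2, which puts glucose on flavonols and anthocyanins, read 6037 and 3601 in WT and 7320 and 4642 in Atss3 at 1 h, and 736 and 404 in WT and 581 and 402 in Atss3 at 16 h. The difference was 3.34 ± 0.15 (10.2-fold, adjusted p = 3.96e-06), with run 1 above run 2 in each genotype at 1 h. UGT78D1, which puts rhamnose on flavonols, was higher by 1.06 ± 0.20. UGT84A1, a hydroxycinnamate glucosyltransferase, was called higher, but its signals of 10 to 122 at 1 h and 3 to 7 at 16 h were mostly dim. DFR, an enzyme of anthocyanin synthesis, was lower at 1 h, with 63 to 130 against 167 to 436 (−1.70 ± 0.22), and was dim on 2 of the arrays of 1 h.

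The UGT family, enzymes that attach sugars to small molecules, had 47 members named on the array, of which 27 were bright enough to be tested. Of these, 10 were higher, 7 were lower and 10 were not called, with a median of 0.02, beside 17.5% higher and 21.9% lower over all probe sets. UGT76C2, which inactivates cytokinin by N-glucosylation, read 123 to 226 at 1 h and 578 to 638 at 16 h (−1.89). UGT85A2 was lower, at −1.61 and UGT72B3 higher by 1.36 ± 0.15. IAGLU, a glucosyltransferase of the auxin indole-3-acetic acid, was 4.50-fold higher. Of 24 cytochromes P450 named on the array 13 were tested, 4 of them (30.8%) were higher and 0 lower, with a median of 0.20, and the share called was below the 39.4% over all probe sets. CYP71B26 was higher by 4.05 ± 0.23, with signals of 2289 to 2999 at 1 h and 85 to 214 at 16 h. It was dim on 1 array of 16 h. CYP71B35 was higher by 1.41. CYP78A9, with 228 to 567 at 1 h and 62 to 98 at 16 h, and CYP71B36 (at least 1.52-fold higher) were dim on 3 and 4 of the arrays of 16 h. Of 8 glutathione transferases 4 (50%) were called, beside 39.4% over all probe sets: 3 were higher and GSTU20 was lower, at −0.70 ± 0.16. GSTU28 (at least 1.62-fold higher) and GSTU23 (at least 1.47-fold) were dim on all 4 arrays of 16 h.

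Of the nuclear genes of the photosynthetic machinery, 2 of 3 antenna genes and 4 of 4 photosystem genes were called higher at 1 h. The same held for 3 of 4 genes of carbon fixation and photorespiration, beside 17.5% higher over all probe sets. LHCB4.2, an inner antenna protein of photosystem II, read 18273 and 20834 in WT and 21714 and 19508 in Atss3 at 1 h, against 6578, 6305, 7675 and 6125 at 16 h. The groups were far apart, at 3.02-fold (1.59 ± 0.13). Its paralogue LHCB4.1 was higher by 0.49 ± 0.14, while LHCB4.3 gave −0.38 ± 0.28 and was not called. All 4 measured photosystem subunits were higher, with a median of 0.73: PSAN of photosystem I by 1.05 ± 0.16, PSBY of photosystem II by 0.86, PSBW of photosystem II by 0.61 and PSAE-1 of photosystem I by 0.56. PSAN read 15548 to 20467 at 1 h and 7630 to 9899 at 16 h. In carbon fixation and photorespiration 3 of 4 genes were called: RCA, the activase of Rubisco, at 0.54 ± 0.13, SBPASE of the Calvin cycle at 0.51 and HPR, the hydroxypyruvate reductase, at 0.47. PRK gave 0.34 and was not called.

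These small differences lie among the brightest signals on the arrays, and several depend on the scaling and on which arrays were used. The calls of HPR and PSAE-1 were each lost in 10 alternative settings and that of LHCB4.1 in 9. Some of these settings left out single arrays. Centring each array on its median left 3 of 4 carbon fixation genes and 4 of 4 photosystem genes called higher. With quantile normalization, which forces the same distribution on every array, the carbon fixation median went from 0.49 to 0.09 with 0 of 4 called. The photosystem median went from 0.73 to 0.38 with 2 of 4 called. LHCB4.1 went to 0.04 and lost its call, and LHCB4.2 kept it. The highest signal on the 4 arrays of 1 h also exceeded the highest on the 4 arrays of 16 h, as the maxima were 29249.7 to 35218.4 against 21950 to 26932.

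The 60 plastid-encoded genes tested here fell into 4 groups, and none of them was called, beside 39.4% over all probe sets. Of the 20 photosystem, 9 NDH, 12 cytochrome and ATP synthase and 19 ribosomal and polymerase genes, 0 passed the adjusted threshold in limma, and only 1 had an unadjusted p under 0.05. Their medians were 0.35, 0.31, 0.31 and 0.11, beside −0.06 over all probe sets. The largest difference was in psbD, the D2 protein of photosystem II. It read 2333 and 5844 in WT and 7302 and 3726 in Atss3 at 1 h and 1149 and 5387 in WT and 2029 and 1476 in Atss3 at 16 h, and the groups overlapped (1.08 ± 0.50, adjusted p = 0.124). The WT medians of the 4 groups were 0.13, −0.03, −0.01 and −0.06, and the Atss3 medians were 0.53, 0.65, 0.35 and 0.25. The genotypes had the same sign in 13 of 20, 2 of 9, 6 of 12 and 5 of 19 members, beside 81.5% over all probe sets. Without both WT arrays of run 1, which had the lowest GAPDH ratios of the 8 arrays, the photosystem median was 0.40 with 1 member called. In that setting 4144 of all 14741 probe sets were called. The part of these arrays in the result was not tested. Among single members that were not called, psbM gave 0.40, ndhI 0.35 and atpE 0.35, and all 3 turned slightly negative under quantile normalization, while rpoA at −0.40 turned positive in run 2 alone.

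Of 4 measured genes of chlorophyll synthesis 2 were lower, 1 was higher and 1 was not called, beside 21.9% lower and 17.5% higher over all probe sets. PORB, the light-dependent protochlorophyllide oxidoreductase that green leaves keep, read 879 and 782 in WT and 751 and 497 in Atss3 at 1 h, and 6303 and 5563 in WT and 7983 and 5402 in Atss3 at 16 h. Every night array lay above every morning array, 8.76-fold (−3.13 ± 0.17, adjusted p = 9.79e-06). GSA1, an enzyme of the first committed steps of tetrapyrrole synthesis, was lower, at −0.64 ± 0.14. AT1G74470, listed as geranylgeranyl reductase, which makes the phytyl tail of chlorophyll, was higher by 0.75 ± 0.13. CHLM, a magnesium protoporphyrin methyltransferase, read 5701 to 6486 at 1 h and 5672 to 6363 at 16 h and was not called (0.05).

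Few starch genes could be measured, with 2 of 3 for synthesis called higher and 2 of 2 for breakdown called lower. Over all probe sets 17.5% were higher and 21.9% lower. For synthesis, APL3, a large subunit of the enzyme that makes ADP-glucose, read 1051 and 940 in WT and 907 and 1085 in Atss3 at 1 h and 328, 387, 356 and 399 at 16 h, with no overlap (1.44 ± 0.13). The branching enzyme SBE2.2 was higher by 0.39, a call lost in 13 of the alternative settings, and AT5G39790 gave −0.09 and was not called. For breakdown, DPE1, the plastid enzyme that disproportionates maltotriose, read 123 and 142 in WT and 108 and 89 in Atss3 at 1 h and 689, 564, 618 and 607 at 16 h. It was 5.43-fold lower at 1 h and was dim on the Atss3 array of 1 h in run 2. PWD, the phosphoglucan, water dikinase that readies starch for attack, was lower, at −1.67 ± 0.18, with 484 to 912 at 1 h and 1858 to 3112 at 16 h. Of 20 loci listed for breakdown these were the 2 with a named probe set, and of 17 listed for synthesis 3 were tested.

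**Figure D3:**
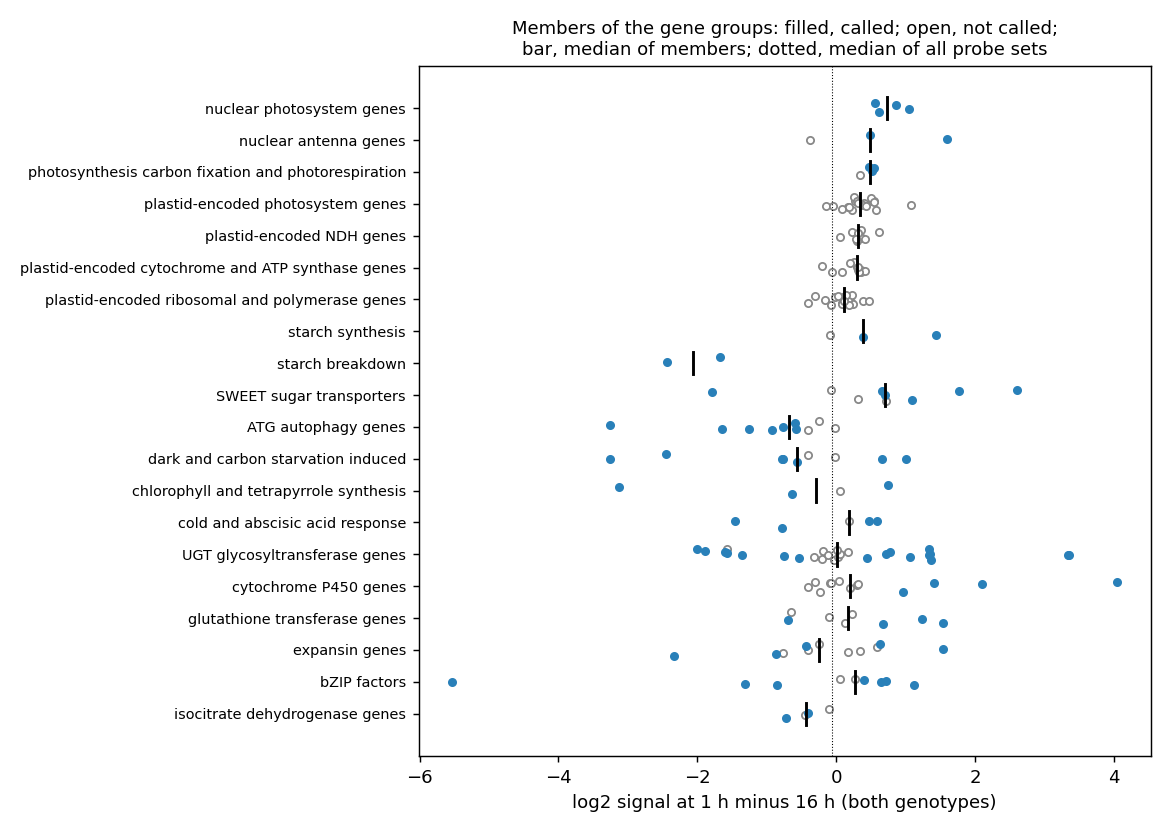
Difference between 1 h and 16 h (log2 signal, both genotypes) for each tested member of 20 gene groups, with filled points for called members, open points for members not called, a black bar at each group's median and a dotted line at the median of all probe sets. The 60 plastid-encoded members are all open, the nuclear photosystem points lie right of 0 and the called autophagy points lie left of it.

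Of 14 SWEET sugar transporters named on the array 9 were tested. Of these, 5 were higher at 1 h, 1 was lower and 3 were not called, with a median of 0.70, beside 17.5% higher and 21.9% lower over all probe sets. SWEET13, a sucrose exporter, read 783 and 512 in WT and 714 and 694 in Atss3 at 1 h and 96 to 123 on the 4 arrays of 16 h, 6.08-fold higher. SWEET2, a vacuolar glucose carrier, read 3290 to 4257 at 1 h and 859 to 1341 at 16 h (1.76 ± 0.12). SWEET1, a glucose carrier, was higher by 1.09, and the vacuolar carriers SWEET17 and SWEET16 by 0.66 and 0.70. SWEET4, a hexose carrier of the plasma membrane, was lower, at −1.78 ± 0.17. It was dim in part, and the alternative settings gave −1.90 to −1.37. SWEET11, the phloem-loading sucrose exporter, read 5099 to 7019 at 1 h and 6004 to 8258 at 16 h and was not called (−0.07). In the list of sucrose metabolism AT2G35840 was higher by 0.78, AT1G62660 was lower, at −2.37 and the sucrose phosphate synthase ATSPS4F gave −0.04.

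Of 10 ATG genes of autophagy measured, 7 were lower at 1 h, 0 were higher and 3 were not called, beside 21.9% lower over all probe sets. Their median was −0.68. ATG8E, one of the ubiquitin-like proteins that coat the autophagosome, read 94 and 149 in WT and 116 and 168 in Atss3 at 1 h and 722, 1373, 1433 and 1630 at 16 h. The groups were separate, 9.57-fold apart (−3.26 ± 0.16). Its relatives ATG8D (−1.64), ATG8H (−1.26), ATG8F (−0.93), ATG8C (−0.76), APG8H (−0.59) and ATG8G (−0.57) were lower as well. APG8A gave −0.41, ATG3, an enzyme of ATG8 conjugation, −0.25 and ATG8B −0.02, and these 3 were not called. Since 9 of the 10 are members of 1 family with similar sequences, they are not separate lines of evidence.

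The list of genes known to rise in darkness or sugar starvation held 9 measured members, of which 5 were lower at 1 h, 2 were higher and 2 were not called, beside 21.9% lower and 17.5% higher over all probe sets. It shares members with the autophagy group. AKINBETA1, a regulatory subunit of the SnRK1 kinase, read 196 and 252 in WT and 295 and 371 in Atss3 at 1 h and 1012, 1483, 1519 and 2144 at 16 h. It was 5.49-fold lower at 1 h, at −2.46 in WT and −2.45 in Atss3. Leucine breakdown did not move as a block: the subunits of methylcrotonyl-CoA carboxylase, MCCB (−0.78 ± 0.17) and MCCA (−0.56 ± 0.19), were lower, while IVD, the isovaleryl-CoA dehydrogenase of the same route, was higher by 0.66 ± 0.19. PPDK, the pyruvate, phosphate dikinase, was higher by 1.00 ± 0.24 with overlapping groups, 2196 to 4312 at 1 h and 1332 to 2225 at 16 h. Without both WT arrays of run 1, 4 members were lower and 0 were higher, beside 2228 lower and 1916 higher of all 14741.

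Among enzymes of the cell wall, XTH32, which cuts and rejoins xyloglucan, read 4056 and 6559 in WT and 5708 and 3110 in Atss3 at 1 h and 583 to 858 at 16 h, 6.38-fold higher. XTH19 was higher by 1.97 ± 0.20. XTH33 was called lower but was dim at 1 h on all 4 arrays, and its call was lost with dim signals raised to the 40th percentile. Of 11 tested expansins, proteins that loosen the wall, 2 were higher, 3 lower and 6 not called, a share close to the 39.4% called over all probe sets. EXPA16 read 85 to 215 at 1 h, with 2 arrays dim, and 503 to 791 at 16 h (−2.34). EXPB1 was called higher with overlapping groups, at 53 to 352 at 1 h and 36 to 79 at 16 h, and was dim on all 4 arrays of 16 h. Its difference was 0.81 with dim signals raised to the 40th percentile, and the call was lost with no filter and in run 2 alone. The calls of EXPA15 and EXPA20 were each lost in 9 settings. Of 6 cellulose synthase-like genes 2 (33.3%) were called, CSLC04 (−0.91) and CSLA03 (−1.15), both lower. That share is below the 39.4% called over all probe sets. Of 3 pectin enzymes PME61, with 90 to 153 at 1 h and 241 to 270 at 16 h, and PMEAMT (−0.64) were lower. Over all probe sets 21.9% were lower, and PME61 was dim in part. Without both WT arrays of run 1, 0 of the 6 cellulose synthase-like genes were called, and their median went from −0.18 to −0.15. Calls over all probe sets also fell in that setting, from 5807 to 4144.

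Of 9 tested bZIP transcription factors 4 were higher and 3 lower, beside 39.4% called over all probe sets. BZIP53, a factor of the low-energy response, read 426 to 693 at 1 h and 1103 to 1530 at 16 h (−1.31 ± 0.16), and bZIP52 was lower, at −0.86. BZIP61 was dim on all 4 arrays of 1 h, at 2 to 35, and read 201 to 336 at 16 h, at least 2.80-fold lower at 1 h. Without both WT arrays of run 1, 1 bZIP factor was called higher and 3 lower, beside 1916 higher and 2228 lower of all 14741 probe sets. bZIP19, a sensor of zinc status, was higher by 0.71 and BZIP17, a factor of the endoplasmic reticulum stress response, by 0.40. Among bHLH factors, bHLH34 was 4.70-fold higher and bHLH121 was 3.15-fold lower at 1 h; both are linked to iron uptake. The cytokinin response regulators parted, with RR16 lower (233 and 773 in WT, 276 and 826 in Atss3, against 1108, 2446, 1279 and 2161) and ARR15 higher by 1.41 ± 0.22. For RR16 run 2 was above run 1 in all 4 groups, and the difference was −1.88, lower in all 4 pairs. IAA29, an auxin-response repressor, was dim at 1 h and at least 1.58-fold lower. TCP15, a growth regulator, was higher by 0.99, and AOP1, of the glucosinolate side-chain enzymes, by 1.62 ± 0.15.

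Of 3 measured genes of the mitochondrial NADH bypass 2 were called, beside 39.4% over all probe sets. NDB2, an external NADH dehydrogenase that bypasses complex I, was higher by 1.31 ± 0.29 and NDB1 lower, at −0.64. Of 4 isocitrate dehydrogenase genes IDH-VI (−0.72) and IDH-V (−0.40) were lower, beside 21.9% lower over all probe sets. Of 6 redoxins GRXC2, a glutaredoxin, was lower, at −0.48 and the others were not called, a share (16.7%) below that over all probe sets. In the cold and abscisic acid list, XERICO, which raises abscisic acid levels, was lower, at −0.78 and the dehydrin LTI30 at −1.46 ± 0.48. The chloroplast protectants COR15A and COR15B were higher by 0.58 and 0.47, and COR47 gave 0.18 and was not called. Without both WT arrays of run 1, 0 of the 5 were called higher and 2 lower, beside 1916 higher and 2228 lower of all 14741. The calls of NDB1, IDH-V, GRXC2, COR15B and LTI30 were each lost in 8 to 12 alternative settings. EIF4A-2, a translation initiation helicase, was higher by 0.53 ± 0.12.

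Although no probe set passed the test of the genotype difference, those nearest to it were dim in part. AT5G63480 read 70 and 117 in WT and 14 and 15 in Atss3 at 1 h and 310, 418, 516 and 347 at 16 h, and its change was −1.99 in WT and −4.83 in Atss3 (adjusted p of the difference 0.0871). AT1G06270 gave 0.06 in WT and 1.91 in Atss3, also at 0.0871, AT3G25210 had 0.201 and NRPD7, of the plant-specific RNA polymerase machinery, 0.254. The 2 probe sets called with opposite signs in the genotypes were noticed after the values were seen. ETFQO, which passes electrons from amino acid breakdown to the respiratory chain, read 180 and 198 in WT and 395 and 371 in Atss3 at 1 h, with 283, 272, 244 and 298 at 16 h. Its change was −0.56 in WT and 0.51 in Atss3, and the difference was not called (adjusted p = 0.690). AT5G18750 was dim on most arrays (difference not called, adjusted p = 0.265).

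QQS, a short gene of starch regulation known to be high in this mutant, was lower at 1 h in both genotypes. It read 283 and 251 in WT and 3312 and 3371 in Atss3 at 1 h, and 303 and 470 in WT and 5824 and 5478 in Atss3 at 16 h. Within each genotype the morning arrays were below the night arrays, with a change of −0.50 in WT and −0.76 in Atss3 (both −0.63 ± 0.17, adjusted p = 0.0181). This call was lost in 6 of the alternative settings, among them run 1 alone.

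The other 3 harvests place the 2 times in the day, as a description that shares the arrays of 1 h and 16 h. Of the 12 largest increases, 11 had their highest mean at 1 h of all 5 times, and 11 were in between at 4 h. Their lowest mean was at 8.5 h in 5 genes and at 12 h in 7, and in 0 at 16 h. Of the 12 largest decreases all 12 were lowest at 1 h, 9 were in between at 4 h and 9 were highest at 8.5 h and 2 at 16 h. So the mean signals at 16 h were not the extremes of the day for most of these genes.

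**Figure D4:**
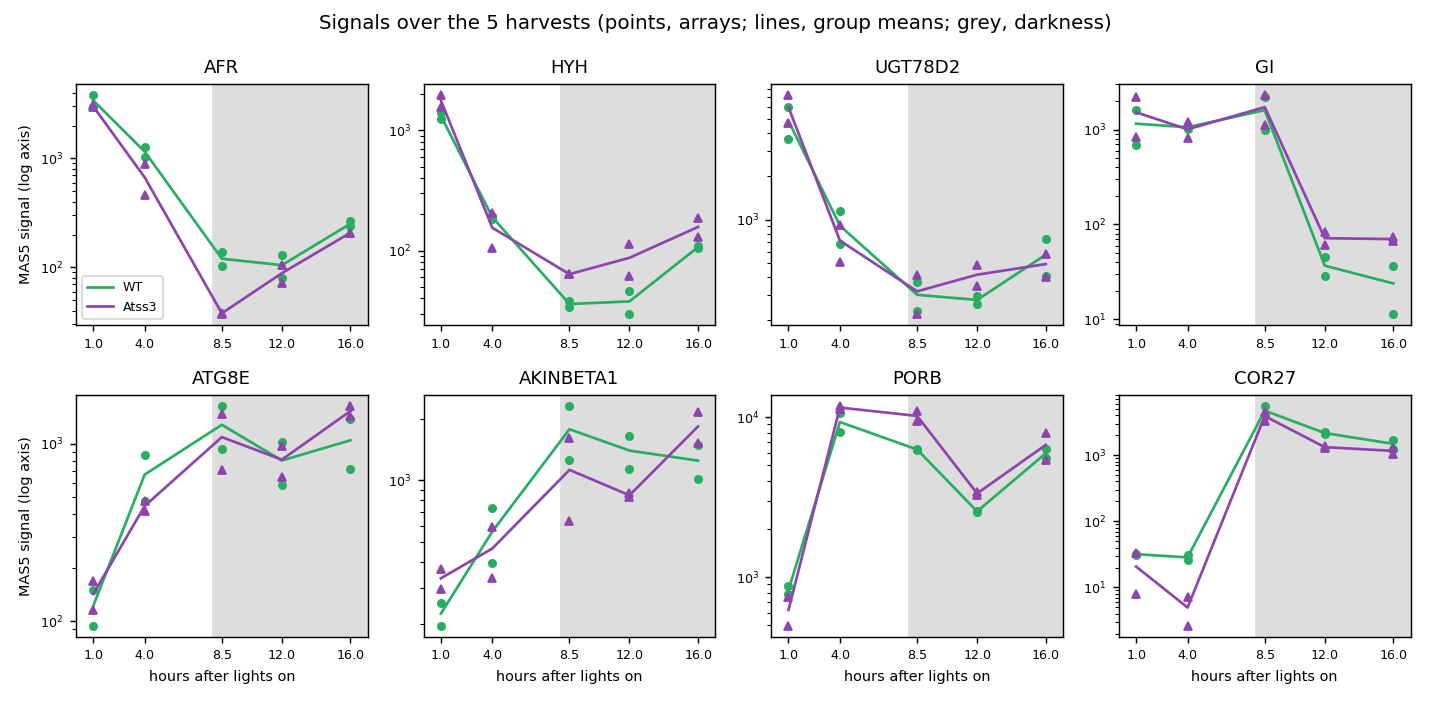
MAS5 signal (log axis) of 8 genes against hours after lights on, with points for single arrays, lines for the means of WT (green) and Atss3 (purple) and grey for darkness. AFR, HYH and UGT78D2 are highest at 1 h, GI is high from 1 h to 8.5 h and low at 12 and 16 h, ATG8E, AKINBETA1 and PORB are lowest at 1 h and COR27 is low in the light and high in the dark.

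The tissue label was checked by the bright antenna and carbon fixation genes, with LHCB4.1 at 16358 to 29668 and RCA at 17032 to 28899 on the 8 arrays. Of 16 listed markers of other cells and organs, 3 had a named probe set and 2 were tested. FMA, a guard cell factor, read 137 to 196 at 1 h and 156 to 232 at 16 h and was not called. PYK10, a beta-glucosidase of root and hypocotyl, read 305, 92, 316 and 183 at 1 h and 509, 302, 377 and 696 at 16 h, lower, at −1.16 ± 0.35 (adjusted p = 0.0313) with overlapping groups. The part of other tissue in the differences was not tested.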

How the data were processed

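Signals of 20 arrays were deposited; per the labels each array holds RNA of pooled rosette leaves. The deposited intensity values are linear MAS5 signals made by the authors, per the submitters' processing notes, with the version not given in the sources used here. They were already scaled, with a 2% trimmed mean of 500.0 on each array, and were used as deposited. Values under 1 were raised to 1 and log2 was taken. After leaving out 64 controls, probe sets above the array's 40th percentile on at least 2 of the 8 arrays were kept. Names came from the platform annotation, updated to TAIR10.1 symbols: 13513 probe sets had 1 gene, 503 several and 8730 none. Of the 13513, 13436 matched the gene table.

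The difference of 1 h minus 16 h was fitted in limma 3.58.1 (R 4.3.3) with genotype and run as covariates (4 residual and 4.11 prior degrees of freedom). WT, Atss3 and their difference came from a fit of all 20 arrays in 10 groups with the run as a block. P-values are 2-sided and Benjamini-Hochberg adjusted over all kept probe sets, at 0.05. Arrays of a number share a run, per the labels; deviations from the group means correlated at 0.13, 0.18, 0.27, −0.10, 0.22 and 0.26 in the 6 pairs of groups. Precision is limited by 2 arrays per group. The control ratios were compared by an exact permutation test in scipy 1.17.1. The fit was also run on simulated data with independent noise and few changed genes. Unlike these data it had no run effect, so it checks only the code. Figures were drawn with matplotlib 3.10.9.

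Gene lists (13 by locus with 258 loci, 52 by symbol) and members were chosen with earlier results of these data known. Lists are described by counts and medians only; several probe sets of a gene were represented by the brightest. Named genes are the 12 largest rises and 12 largest falls bright on all 8 arrays with the same sign in 4 of 4 pairs, 6 rises and 6 falls dim at 1 time, up to 4 called members per list of at least 3 (or 2 if none was called), the 4 smallest p of the genotype difference, and QQS. The 15 rises and 15 falls with a symbol, the 2 probe sets of opposite sign and the other list members given were named after their values were seen. Alternatives were other scaling, filters, pseudocount, no run block, single arrays or runs left out and all 20 arrays in the fit. No promoter sequence was used here.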

Additional observations from a re-analysis of the deposited data

How the results depend on the processing

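The direction of each of the 123 called named genes was kept in every setting, and 88 kept their call in all of them; the other 35 lost it in at least 1. Of the 9 named genes that were not called, 4 turned: psbM to −0.03, ndhI to −0.003 and atpE to −0.10 with quantile normalization, and rpoA to 0.01 in run 2 alone. The cause was not tested. The count for both genotypes was 5807, and 2823 in run 2 alone, where 1 residual degree of freedom is left; in run 1 alone it was 4028. Without the run block (the pairing by run) the counts were 5362 for both genotypes, 2922 in WT, 3902 in Atss3 and 0 for the genotype difference. In WT the count fell from 3862 to 2558 when only the 8 arrays were fitted. Leaving out 1 array at a time gave 4361 to 5615 for both genotypes, 2241 to 3830 in WT, 3010 to 5149 in Atss3 and 0 to 6 for the genotype difference. The lowest WT counts, 2241 and 2574, came without the WT 16 h arrays of replicate 1 and of replicate 2, and the lowest Atss3 counts, 3010 and 3227, without the Atss3 arrays of replicate 1 at 1 h and at 16 h. The 6 calls of a genotype difference came without WT 1 h replicate 2. A setting chosen after seeing the data, without both WT arrays of run 1, gave 4144 calls, of which 3981 were among the 5807. With dim signals raised to the 40th percentile, 5465 of the 5807 calls were kept and 342 were lost. The other settings gave 5845 (quantile normalization), 6143 (64 added before log2), 4246 (no filter), 5086 (above the percentile on all 8 arrays) and 6701 (all 20 arrays). Of the called probe sets 1220 were dim on at least 1 array.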
